A study of Mus musculus with 4 samples.

Results

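Plasmacytoid dendritic cells (pDCs) of the mouse liver were taken from single-cell RNA sequencing as cells with at least 3 UMIs of Siglech and at least 2 UMIs in all of Ccr9, Klk1, Cox6a2 and Runx2. They also had 0 UMIs of Cd3d, Cd3e and Cd3g and at most 5 UMIs of C1qa, C1qb and C1qc. A UMI is a molecular tag that counts 1 captured RNA molecule. Of 34746 barcodes called as cells, 31290 passed the limits of 500 or more genes seen and a mitochondrial share of UMIs up to 20%, and 484 of these (1.55%) were pDCs. There were 37 in the normal chow diet library (NCD), 47 and 225 in replicates 1 and 2 of the high-fat diet group (HFD), and 175 in the library of the group given Jiangtang Qingre Formula (JQF).

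All mice were male C57BL/6J, 5 weeks old when bought. NCD mice ate normal chow, and HFD and JQF mice ate a diet with 60% fat. After 14 weeks on the diets, gavage lasted 8 weeks, with distilled water for NCD and HFD and with JQF, a preparation of medicinal herbs, for the treated group. NCD and JQF had 1 library each and HFD had 2, and the methods give the same numbers of livers collected (n = 1 for NCD and JQF, n = 2 for HFD). Livers had been perfused, digested and freed of dead cells and erythrocytes, so shares are of cells in suspension, not of the liver. The labels name the cell type only as immune cells and the cell line field reads hematopoietic stem cell, neither of which describes the mixture in the files.

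pDCs are a rare dendritic lineage set by the transcription factor Tcf4. They detect viral RNA and DNA through the endosomal receptors Tlr7 and Tlr9, which Unc93b1 carries to endosomes, and signal through Myd88 and Irf7 to release type I interferon in large amounts. Interferon acts back through the receptor chains Ifnar1 and Ifnar2 and switches on the interferon-stimulated genes, many of them antiviral effectors. In the liver, pDCs are known as a small resident population studied in tolerance, viral hepatitis and fatty liver.

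The promoters of interferon-stimulated genes often hold the core of the interferon-stimulated response element, 2 copies of GAAA spaced by any 2 bases, and 4 of them are shown because several genes of this group rose in HFD, as described below. Each stretch is 120 bases long, 5′ to 3′ on the gene's strand (RefSeq, GRCm38.p6), with the motif on either strand in capitals. It ends 1 base before the start site, except for Bst2, where it runs from 150 to 31 bases before it. Rsad2, an antiviral enzyme gene that passed the test, is at chr12:26456453-26456572 on the minus strand. Ifih1, an RNA sensor gene that passed, is at chr2:62646256-62646375 on the minus strand and has no match. Bst2, the antiviral tether that also marks pDCs, is at chr8:71537503-71537622 on the minus strand. Isg15, a ubiquitin-like protein gene that did not pass, is at chr4:156200819-156200938 on the minus strand.
Rsad2: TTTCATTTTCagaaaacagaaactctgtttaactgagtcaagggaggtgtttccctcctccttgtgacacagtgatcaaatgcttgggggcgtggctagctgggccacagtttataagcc
Ifih1: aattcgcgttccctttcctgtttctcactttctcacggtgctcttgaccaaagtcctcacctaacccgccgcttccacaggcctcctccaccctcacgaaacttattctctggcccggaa
Bst2: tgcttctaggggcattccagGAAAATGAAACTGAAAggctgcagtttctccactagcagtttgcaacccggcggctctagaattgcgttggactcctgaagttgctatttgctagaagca
Isg15: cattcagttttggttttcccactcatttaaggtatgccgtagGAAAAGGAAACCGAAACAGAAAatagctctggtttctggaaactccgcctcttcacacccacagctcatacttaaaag
Within 250 bases upstream, 13 of the 29 listed interferon-stimulated genes with a RefSeq entry (44.8%) held this motif on either strand, overlapping copies included, against 936 of 27025 genes (3.46%). Of the 8 interferon-stimulated genes that passed the test in HFD vs NCD, 6 had an entry and 1 of them, Rsad2, held the motif.

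The cells carried the transcripts that define pDCs, including those the selection did not use. In CPM, the UMIs of a gene per 1000000 UMIs of the same cells and library, Tcf4 stood at 5290.5 in NCD, 3127 and 5067 in HFD replicates 1 and 2, and 3564 in JQF, and it was detected in 484 of 484 cells. Bst2 was also detected in every pDC, at 1644, 2135, 2237 and 2153 CPM in the same order. Levels in all other cells kept were much lower, at 119 to 766 CPM for Tcf4 and 151 to 237 CPM for Bst2. These gaps are a description, since the cells were chosen by genes that travel with these transcripts.

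Siglech, the sialic acid-binding receptor that chose the cells (GRCm38, chr7:55768178-55778925 on the plus strand), ran at 2200.0, 1572, 2354 and 1908 CPM. The median pDC carried 45, 20, 27 and 32 Siglech UMIs, far above the cut of 3. Ccr9, the receptor for the gut chemokine Ccl25, was at 1057, 439, 971 and 786 CPM. It was lowest in HFD replicate 1. T, B and sinusoidal endothelial cells, which should lack Siglech, were counted after the pDCs had been taken out. Of the cells of a library, 0 to 0.977% in each class carried a Siglech UMI, at median depths of 5152 to 15834.5 UMIs. The median depths of pDCs were 11982 to 20068 UMIs. These shares are a description, since the selection used Siglech.

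Relative to the number of pDCs, the edge of the selection held most cells in HFD replicate 1. Cells with 3 or 4 Siglech UMIs numbered 2, 6, 10 and 16 of the pDCs in NCD, HFD replicate 1, HFD replicate 2 and JQF. Cells with 2 Siglech UMIs that met the other limits numbered 1, 18, 13 and 14. Taking them in raised the share in HFD replicate 1 from 0.721% to 0.998% of cells, and the genes called in HFD vs NCD (below) went from 284 to 10. In HFD replicate 1, Tcf4 stood at 3423 CPM in pDCs with 5 or more Siglech UMIs, at 1061 CPM in those with 3 or 4 and at 481 CPM in cells with 2. Xcr1, the receptor of type 1 conventional dendritic cells, ran the other way in that library, at 21.5, 150.1 and 223 CPM. The limit on Cd3 alone kept out 0, 9, 19 and 17 further cells, and the C1q limit alone kept out 0, 0, 11 and 1.

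**Figure D1:**
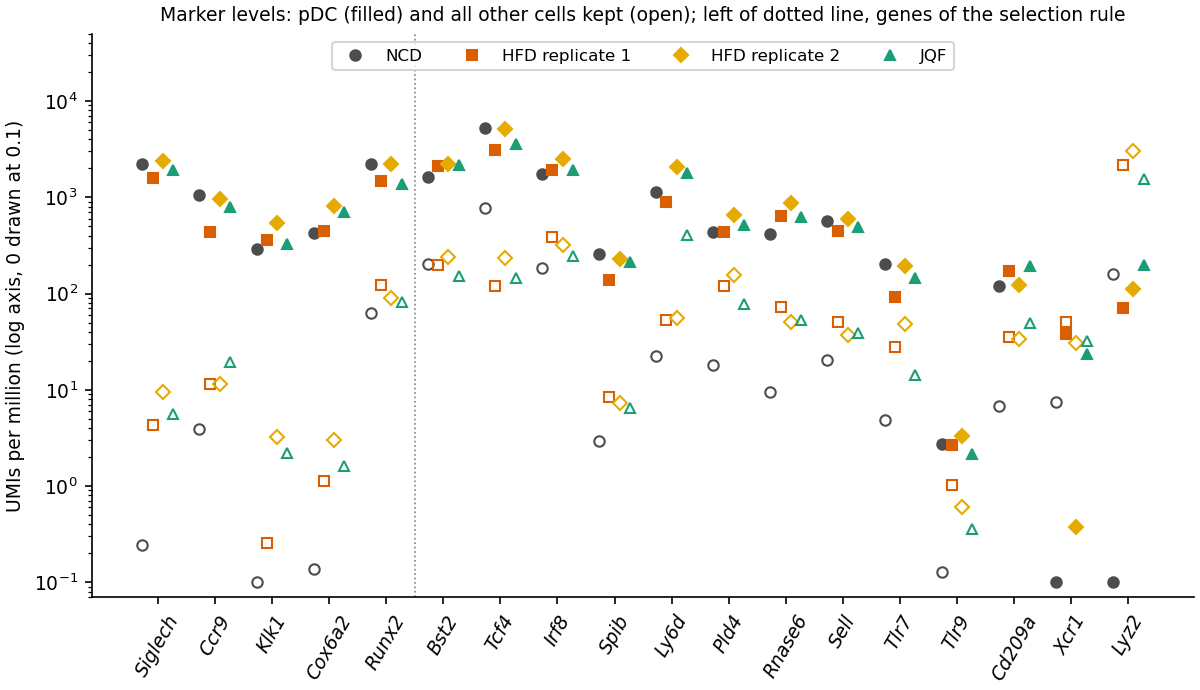
Levels of marker genes in pDCs (filled symbols) and in all other cells kept (open symbols), in CPM on a log axis, per library, with 0 drawn at 0.1. Genes left of the dotted line chose the cells. Tcf4 lies between 3127 and 5290.5 CPM in the pDCs of the 4 libraries, and Lyz2 (0 to 198 CPM) is lower in pDCs than in other cells in every library.

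Of 30 pDC identity genes outside the selection rule, 30 were detected in every library. Their summed level was 19096, 19155, 25203 and 20165 CPM in pDCs, against 2066 to 3673 CPM in other cells. Irf8, a dendritic transcription factor, stood at 1745, 1899, 2515 and 1919 CPM. Ly6d, a surface protein of lymphoid progenitors and pDCs, was at 1128, 884, 2077 and 1806 CPM, lowest in HFD replicate 1. Ly6d was also unusually frequent among loose RNA of the JQF library, at 419 CPM in barcodes of at most 100 UMIs, against 40.4 to 88.7 CPM in the other libraries. In all other cells kept it was at 404 CPM in JQF, against 22.6 to 56.1 CPM in the other libraries.

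The innate sensing machinery was present but uneven. Tlr7 stood at 203, 92.7, 193 and 144 CPM, and Unc93b1, its chaperone, at 379, 566, 591 and 479 CPM. Tlr9, the DNA sensor, was hardly captured, at 2.76, 2.69, 3.34 and 2.15 CPM, and it was seen in 2, 2, 8 and 6 cells. Depth limits what can be said of Tlr9 in single cells. Irf7, the transcription factor behind interferon output, was at 67.5, 101, 101 and 98.1 CPM.

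Interferon genes themselves were nearly silent at this depth. Of 19 type I and III interferon genes, 16 had 0 UMIs in the pDCs of every library, Ifna1 and Ifna4 among them. Ifna2 had 0, 12, 26 and 2 UMIs, found in 2 cells of each HFD library and 2 JQF cells. Ifnb1, interferon beta, had 0, 16, 0 and 1 UMIs, and Ifnl3, interferon lambda 3, had 9 UMIs in 1 JQF cell. In NCD, 0 of 37 pDCs carried a UMI of any of the 19 genes, which allows a share of up to 8.11% of cells with a UMI, for counting error only.

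pDCs were not uniform, and a split by Ly6d, chosen after its values were seen and given as a description, separated them in every library. Cells with 0 Ly6d UMIs numbered 6 of 37 in NCD (16.2%, 95% exact interval 6.19 to 32.0), 15 of 47 and 18 of 225 in HFD replicates 1 and 2, and 27 of 175 in JQF. Siglech in the Ly6d-negative cells was 722, 719.8, 873 and 576 CPM, against 2502, 1955, 2500.0 and 2226 CPM in the others. The Ly6d-negative cells were thus the lower set for Siglech in each of the 4 libraries, and the same held for Ccr9, Klk1, Cox6a2, Bst2 and Tcf4. Their median UMI counts, 17367, 14989, 13532 and 17462, were above those of all pDCs in the HFD and JQF libraries and below the 20068 of all pDCs in NCD. Siglech, Ccr9, Klk1 and Cox6a2 are genes of the selection rule. At its edge, pDCs with 3 or 4 Siglech UMIs had Ly6d at 0, 10.7, 146 and 13.1 CPM. Those with 5 or more had 1194, 1009, 2153 and 2026 CPM. The part of the edge cells in the split was not tested.

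Some transcripts of conventional and transitional dendritic cells were higher in the Ly6d-negative cells, and others were not. Zbtb46, the transcription factor of conventional dendritic cells, stood at 83.6 to 130.1 CPM in them and at 9.38 to 35.0 CPM in the other pDCs. Cx3cr1, the fractalkine receptor, was at 40.6, 91.1, 33.1 and 42.7 CPM against 8.30, 17.5, 4.08 and 3.99 CPM. Cd209a, a lectin of type 2 conventional dendritic cells, was at 252, 264, 145 and 275 CPM against 93.0, 129, 121 and 172 CPM. In each library the Ly6d-negative cells were the higher set for these 3 genes, and also for Itgax. Other such genes had no common direction. Lyz2 was higher in the Ly6d-negative cells of HFD replicate 1 (173 against 25.3 CPM) and lower in those of HFD replicate 2 (24.8 against 119 CPM). Klra17 was higher in them in NCD (341 against 252 CPM) and lower in the other libraries, and Axl had 0 to 4 UMIs in them. The counts behind Cx3cr1 were small, at 5, 21, 8 and 23 UMIs in the Ly6d-negative cells.

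**Figure D2:**
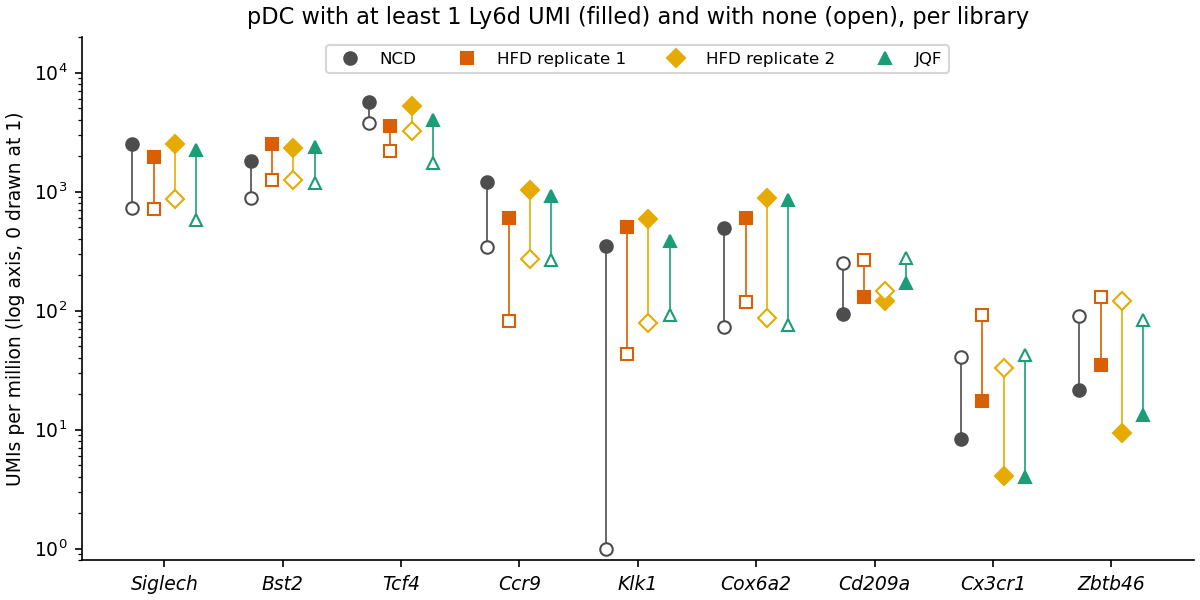
Levels in pDCs with at least 1 Ly6d UMI (filled) and in pDCs with none (open), in CPM on a log axis, per library, with 0 drawn at 1. Siglech, Bst2, Tcf4, Ccr9, Klk1 and Cox6a2 are lower and Cd209a, Cx3cr1 and Zbtb46 higher in the Ly6d-negative cells of all 4 libraries. Siglech, Ccr9, Klk1 and Cox6a2 chose the cells.

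Markers of other cells in the pDCs differed between libraries, and their part in the comparisons that follow was not tested except where a value without such cells is given. B cell markers summed to 35.8 to 85.9 CPM, T cell markers to 22.8 to 74.5 CPM and neutrophil markers to 0 to 24.5 CPM. Plasma cell markers summed to 181 to 254 CPM and conventional dendritic cell markers to 714 to 1084 CPM. Markers of natural killer cells summed to 17.9, 69.9, 62.7 and 261 CPM, the last mostly Ccl5 (225 CPM). Stellate cell markers (0 to 0.358 CPM) and basophil and mast cell markers (0 to 0.742 CPM) were close to absent, and erythroid markers summed to 2.69 to 11.0 CPM. Monocyte markers summed to 852 CPM in NCD and 1816 to 2378 CPM elsewhere. Most of this was Ly6c2, which is also on the pDC identity list, at 644, 1563, 1426 and 1308 CPM. The defining monocyte gene Lyz2 gave 0, 71.2, 111 and 198 CPM. Macrophage markers summed to 147, 183, 216 and 159 CPM. The Kupffer cell genes Clec4f, Vsig4 and Cd5l reached 2 UMIs in 21 of 225 pDCs of HFD replicate 2 and in 0 pDCs of the other libraries. Hepatocyte markers summed to 368 CPM in NCD and to 49.7, 101 and 138 CPM in HFD replicates 1 and 2 and JQF, and endothelial markers to 747 CPM and to 430.0, 534 and 380.2 CPM. Doublet scoring marked 1, 5, 23 and 14 of the pDCs.

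The NCD library stood apart. By marker counts, 3402 of its 5975 cells were sinusoidal endothelial cells, against 91 of 6516, 1021 of 10259 and 532 of 8540 in HFD replicates 1 and 2 and JQF. Ribosomal protein genes took 9.37% of pDC UMIs in NCD and 14.7 to 16.6% in the other libraries, and they were also lowest in NCD in T, B, conventional dendritic and endothelial cells. The pDCs held 725456, 744198, 2694144 and 2793400 UMIs, with medians of 20068, 13801, 11982 and 14823 per cell. Any 2 libraries shared 12 to 27 barcodes among the cells kept and 0 among the pDCs. The diet and the single NCD library cannot be told apart.

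The first comparison asked how common pDCs were. They were 0.619% of cells in NCD (95% exact interval 0.436 to 0.853), 0.721% in HFD replicate 1 (0.530 to 0.958), 2.19% in HFD replicate 2 (1.92 to 2.50) and 2.05% in JQF (1.76 to 2.37). NCD and HFD replicate 1 had overlapping intervals, as had HFD replicate 2 and JQF. The HFD libraries differed from each other 3.04-fold, more than their mean of 1.46% ± 1.04 (SD, n = 2) differed from NCD, 2.35-fold, or from JQF, 1.41-fold. An exact two-sided permutation test gave p = 0.667 for HFD vs NCD and p = 1 for JQF vs HFD, and with 1 library against 2 it cannot go below 0.333. The intervals cover counting error only.

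One HFD library decided the direction of JQF vs HFD. JQF lay above HFD replicate 1 but below HFD replicate 2, so that the log2 ratio to HFD was 0.49 with both, 1.51 with replicate 1 alone and -0.10 with replicate 2 alone. Among cells with at least 1 UMI of Ptprc, the pan-leukocyte gene, the shares were 1.57% in NCD, 2.35% in JQF and 0.788% and 2.60% in the HFD libraries, and the log2 ratio of HFD over NCD was 0.11 in place of 1.23. Among all cells that ratio was 1.82 with HFD replicate 2 alone and 0.22 with HFD replicate 1 alone. With the Ptprc denominator NCD lay between the HFD libraries.

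**Figure D3:**
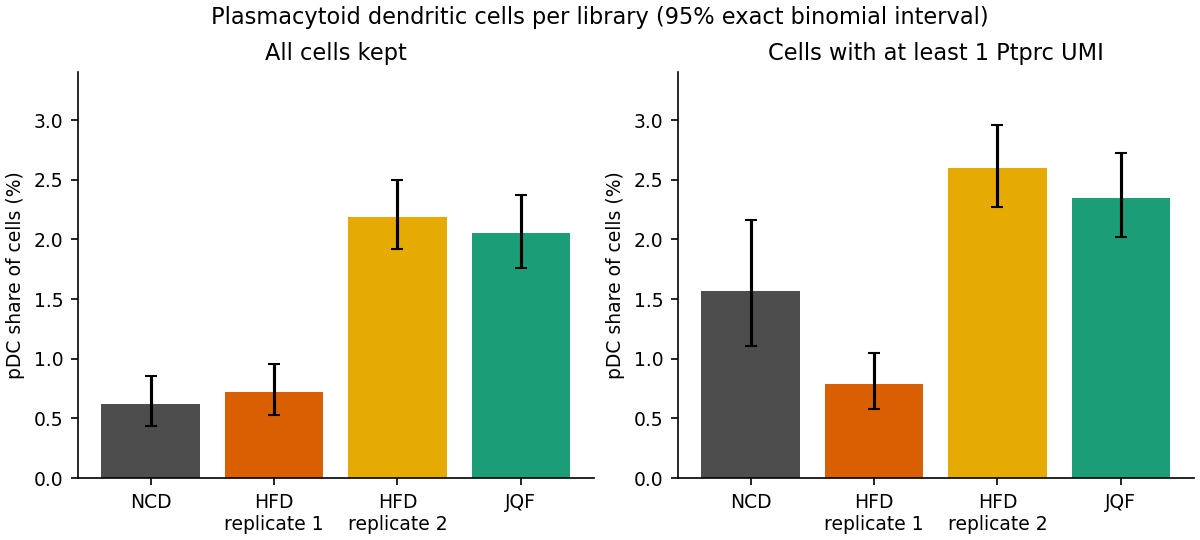
Share of pDCs (%, bars from 0) among all cells kept (left) and among cells with at least 1 Ptprc UMI (right), 1 bar per library, with 95% exact binomial intervals. On the left, NCD (0.619%) and HFD replicate 1 (0.721%) are low and HFD replicate 2 (2.19%) and JQF (2.05%) high, and on the right NCD (1.57%) lies between the HFD libraries.

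The next comparison asked how the high-fat diet libraries differed from NCD within pDCs. In HFD, 8 of 29 interferon-stimulated genes tested, H2-Q7 and the lymphoid surface genes Cd8a, Cd8b1 and Ly6a rose. Nr4a nuclear receptors, Irs2, Antxr2, Bcl2l11 and 2 clock genes fell. Of 30 identity genes 0 passed, with a median log2 fold of 0.28 (-0.08 without HFD replicate 2), and in thinned cells 5 rose and 1 fell. Thinned cells, here and below, are the 30, 30, 199 and 139 cells that met the limits after random thinning to 3000 UMIs each. Their full UMIs were then summed and tested, so this setting changes the choice of cells and does not make depths equal. UMIs were summed per library over pDCs and tested with edgeR's quasi-likelihood test over 10317 genes, with the 4 libraries in 1 fit. Of these genes 284 passed at an adjusted p under 0.05 (2.75%), 55 higher in HFD (0.533%) and 229 lower (2.22%), and 1863 had an unadjusted p under 0.05. The split moved with the processing, with 10 higher and 76 lower by library totals, 7 and 92 by DESeq2 and 6 and 106 with predicted doublets left out. In thinned cells 365 rose and 776 fell of 9622 genes tested. With cells carrying markers of other types left out, 186 rose and 441 fell of 9760. The only replicated group was HFD, so NCD and JQF were assumed to vary as the HFD pair did. The p-values measure only the spread between the HFD libraries. That spread was largely pooled over genes, with 12.4 prior degrees of freedom against 1 residual degree of freedom. The median log2 fold of all genes was 0.14, the level against which the lists below are read.

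Of 29 interferon-stimulated genes tested, of 38 listed, 8 rose and 0 fell, and 24 were positive, with a median log2 fold of 1.25 against 0.14 for all genes. Ifih1, a sensor of double-stranded RNA (chr2:62595798-62646255, minus strand), was at 9.65 CPM in NCD, 204 and 59.4 CPM in HFD replicates 1 and 2 and 18.6 CPM in JQF. Both HFD libraries lay above NCD, with a log2 fold of 3.63 (SE 0.78, edgeR adjusted p = 0.0273). The 3 leading cells held 50% of its HFD UMIs. Ifi27l2a, an interferon-induced gene of the mitochondrial membrane family (chr12:103442167-103443680, minus strand), was at 131, 791, 471 and 323 CPM. It was seen in 19 of 37, 39 of 47, 160 of 225 and 109 of 175 cells, with a log2 fold of 2.21 (SE 0.47, edgeR adjusted p = 0.0263).

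Ifitm3, which blocks virus entry, was at 37.2, 306, 145 and 129.6 CPM, and its log2 fold was 2.52 (SE 0.53, edgeR adjusted p = 0.0237). Rsad2, the promoter of which is printed above, had 3 UMIs in NCD and 172 in HFD, a ratio of levels of 12.1 (95% counting interval 4.07 to 59.2). It was seen in 5 of 47 and 19 of 225 HFD cells, and 3 cells held 50.6% of its HFD UMIs. Oasl1, a member of the oligoadenylate synthetase-like family, had 40 and 80 UMIs in the HFD libraries and none (0) in NCD, which against a floor of 3 UMIs over the group makes it at least 8.44-fold higher. Usp18, which removes Isg15 from proteins, had 3 and 101 UMIs, a ratio of 7.10 (2.36 to 35.0). Ifit2 and Ifi44, both interferon-induced, had 5 and 4 UMIs in NCD and were 5.61 and 5.91 times higher in CPM in HFD. Rsad2 lay at 35.4 CPM in JQF, below both HFD libraries (59.1 and 47.5 CPM).

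Other members of the list did not pass. Isg15 was at 1.38, 33.6, 13.7 and 27.6 CPM, with an edgeR adjusted p of 0.0670. Trim30a, of the tripartite motif family, was at 216, 332, 398 and 282 CPM. The number of calls moved with the choice of cells, the scaling and the test. On the same cells it was 4 with DESeq2 size factors, 3 with DESeq2 and 2 with library totals. With predicted doublets left out 0 of 27 interferon-stimulated genes passed, with 24 positive and a median of 1.20, and with Siglech at least 2 UMIs 0 of 32 passed, with 29 positive and a median of 1.46. With cells carrying other types' markers left out 8 of 25 rose, against 186 of all 9760 genes. The median was 0.86 without HFD replicate 1 and 1.81 without HFD replicate 2.

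The same list moved in conventional dendritic cells of the same libraries, type 1 by Xcr1 and type 2 by Cd209a, where 21 of 36 tested genes rose in HFD with a median log2 fold of 1.49. In those cells 1032 of 13519 genes were called higher (7.63%), against 0.533% in pDCs. A test of the difference between pDCs and conventional dendritic cells in HFD vs NCD called 0 of 12246 genes (0%) with edgeR, with 885 at an unadjusted p under 0.05. Its lowest adjusted p was 0.0710. For Ifih1 the difference in log2 fold, pDCs minus conventional dendritic cells, was 1.61 (SE 0.66), and for Ifi27l2a it was -1.22 (SE 0.41). Hist1h1e, a linker histone gene, came close to the threshold, with 2.76 CPM in NCD and 39.0 and 101 CPM in HFD in pDCs and a difference of 5.33 (SE 0.60, edgeR adjusted p = 0.0775).

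Most antigen presentation genes were positive in HFD vs NCD, and 1 passed. Of 13 MHC class I pathway genes 1 rose and 11 were positive, with a median of 1.04. In thinned cells 8 of 13 rose, against 365 of all 9622 genes. H2-Q7, a class Ib molecule (chr17:35439155-35443773, plus strand), was at 96.5 CPM in NCD and 312, 455 and 203 CPM in HFD replicates 1 and 2 and JQF, with a log2 fold of 1.95 (SE 0.45, edgeR adjusted p = 0.0375). The call was lost in 6 of 13 alternatives, among them doublets left out, library totals and DESeq2, with adjusted p up to 0.207. The alternatives with 1 HFD library left out had no test, so no call could be lost there. Its reads may be shared with near-identical class I genes. B2m, the class I light chain, was at 1172, 2169, 2655 and 1941 CPM, and H2-D1 at 786, 1771, 1688 and 1382 CPM, and neither passed. Of 12 MHC class II genes 0 passed and 11 were positive, with a median of 0.59, which was 0.27 without HFD replicate 1 and 0.25 with other types' markers left out. In thinned cells it was 0.13, against 0.09 for all genes, with 7 of 11 positive. Cd74, the invariant chain, was at 2740.3, 5341, 4664 and 4351 CPM.

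Of 15 lymphoid feature genes 3 rose and 0 fell, with a median of 0.78. Cd8a, a T cell coreceptor chain also known from mouse dendritic cells (chr6:71373427-71379173, plus strand), was at 9.65, 64.5, 99.8 and 61.6 CPM, with a log2 fold of 3.08 (SE 0.55, edgeR adjusted p = 0.00953). Cd8b1, its partner chain, was at 42.7, 137, 246 and 159 CPM. Ly6a, the surface antigen Sca-1, was at 110.3, 445, 379 and 216 CPM and was seen in 12 of 37, 37 of 47, 152 of 225 and 99 of 175 cells. All 3 genes lay above NCD in both HFD libraries and in JQF. The T cell receptor genes Trac, Trbc1 and Trbc2 together reached 2 UMIs in 0, 0, 0 and 1 pDCs, but the selection had already left out cells with a Cd3 UMI. With predicted doublets left out 1 of the 15 passed, and without HFD replicate 2 the median fell to 0.16. With DESeq2 or only the groups compared 0 of 15 passed, and with Siglech at least 2 UMIs 0 of 16. In thinned cells 5 of 16 rose and 1 fell, against 365 and 776 of all 9622 genes. Dntt, the terminal transferase of lymphoid progenitors, was at 159, 48.4, 155 and 102 CPM and did not pass.

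Of the other rises, some were held mostly by single cells. Lyz2, lysozyme, was at least 24.8-fold higher (352 UMIs against 0), but 61.4% of the HFD UMIs came from 1 cell. Cxcl2, a neutrophil chemokine, was at least 18.8-fold higher, and 80.2% of its UMIs came from 1 cell. Tnf had 2 UMIs in NCD and 165 in HFD, a ratio of 17.4 (4.74 to 145), found in 9 and 48 cells of HFD replicates 1 and 2. Ccl5, a chemokine of lymphocytes, had 2 and 77 UMIs, a ratio of 8.12 (2.17 to 68.3). Its call was lost in 8 of 13 alternatives, with adjusted p up to 0.560, and those with 1 HFD library left out had no test. Cd9, a tetraspanin, was at least 8.02-fold higher (114 UMIs against 0), with 58.8% in 3 cells.

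**Figure D4:**
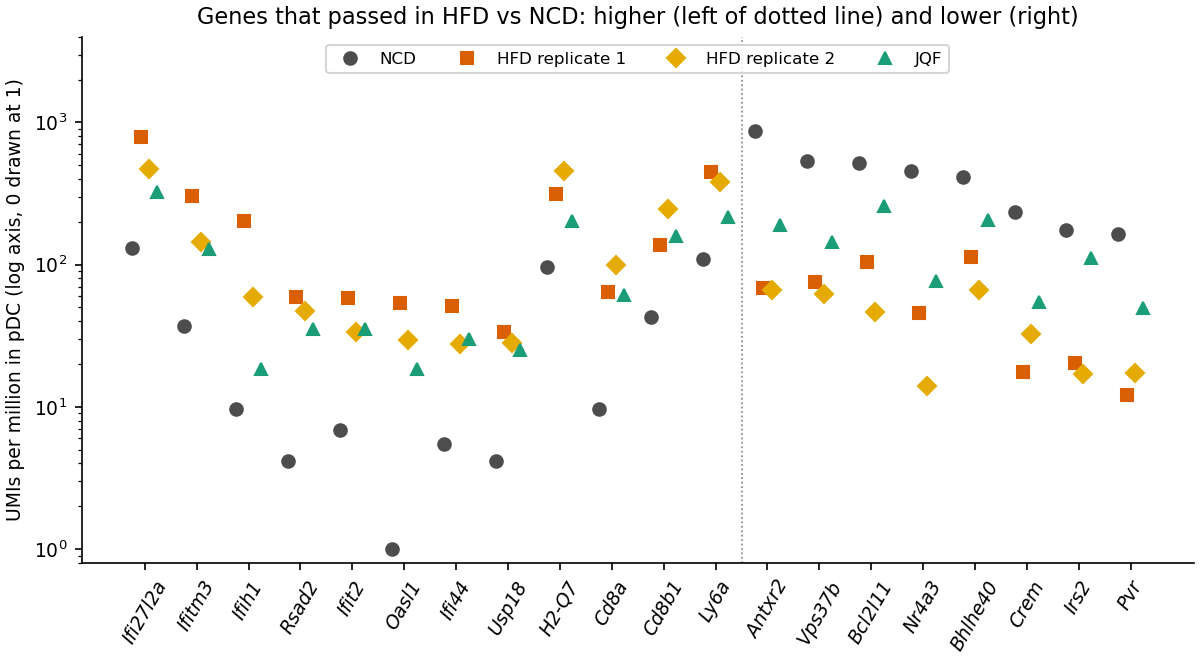
Levels in pDCs of genes that passed in HFD vs NCD, in CPM on a log axis, 1 symbol per library, with 0 drawn at 1. For each gene both HFD libraries lie on the same side of NCD, above it for the 12 genes on the left and below it for the 8 on the right, and Irs2 is at 175 CPM in NCD, 111 in JQF and 20.2 and 17.1 in the HFD libraries.

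Growth and metabolism genes followed. Of 20 cell cycle genes 2 rose and 20 were positive, with a median of 3.16, or 1.54 when the 6 genes with 0 UMIs in NCD were set at their bound. The median was 1.94 without HFD replicate 1, 4.06 without HFD replicate 2 and 1.40 in thinned cells, and with predicted doublets left out 0 of 19 passed. Stmn1, a tubulin-binding protein of dividing cells, had 3 UMIs in NCD and 260 in HFD, a ratio of 18.3 (6.19 to 89.2), of which 56.2% lay in 3 cells, and Hmgb2, a chromatin protein, was at 52.4, 371, 199.7 and 386 CPM. The proliferation genes Mki67 and Top2a together reached 2 UMIs in 1 of 37, 4 of 47, 6 of 225 and 11 of 175 cells, so cells with these transcripts were few in every library. Of 17 glycolysis genes 1 rose, with a median of 1.00. Eno1, enolase, was at 6.89, 91.4, 51.2 and 46.9 CPM, with a log2 fold of 3.25 (SE 0.60, edgeR adjusted p = 0.0119), and its near-identical copy Eno1b may share its reads. The Eno1 call was lost in 5 alternatives, with adjusted p up to 0.110. With predicted doublets left out, library totals or DESeq2, 0 of 17 glycolysis genes passed. In thinned cells 4 of 16 rose and 1 fell, against 365 and 776 of all 9622 genes, with a median of 0.65. Of 30 lipid and sterol genes 0 passed, with 12 positive and a median of -0.25.

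The remaining genes named among the rises were Gm14636 at 5.51, 76.6, 70.5 and 16.1 CPM, the cytidine deaminase Apobec1 at 4.14, 41.7, 58.6 and 22.9 CPM, and the mitochondrial ribosome gene Mrpl34 at 9.65, 72.6, 59.8 and 53.7 CPM.

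The falls in HFD were led by Antxr2, Irs2 and Pvr, with the lowest adjusted p. Antxr2, an anthrax toxin receptor (chr5:97882783-98031043, minus strand), was at 868 CPM in NCD, 68.5 and 66.4 CPM in HFD replicates 1 and 2 and 190.1 CPM in JQF. It was detected in 35 of 37 NCD cells and in 23 of 47 and 92 of 225 HFD cells. Its log2 fold was -3.73 (SE 0.37, edgeR adjusted p = 0.00109). Irs2, the adaptor that links the insulin receptor to its signalling (chr8:10984681-11008458, minus strand), was at 175, 20.2, 17.1 and 111 CPM, with a log2 fold of -3.31 (SE 0.35, edgeR adjusted p = 0.00109). The HFD libraries lay close together for these genes, and JQF lay between HFD and NCD. A choice by adjusted p favours such closeness, since the spread in the test came from the HFD pair. In conventional dendritic cells of the same libraries, Antxr2, Irs2 and Pvr fell too, with log2 folds of -3.99, -2.76 and -2.74. Irs2 kept its direction in each of 13 alternatives, and its call in each of those with a test.

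Members of the Nr4a family fell. Nr4a3, an orphan nuclear receptor (chr4:48045153-48086447, plus strand), was at 452, 45.7, 14.1 and 76.6 CPM, with a log2 fold of -4.16 (SE 0.50, edgeR adjusted p = 0.00170), and 52.1% of its NCD UMIs lay in 3 cells. Nr4a1 was at 524, 180.1, 98.7 and 239 CPM and fell with a log2 fold of -1.99. Nr4a2, outside the naming rule and chosen after its values were seen, was at 103, 21.5, 10.0 and 37.9 CPM. Crem, a modulator of cyclic AMP responses, was at 234, 17.5, 32.3 and 54.4 CPM. The wider list of immediate early and heat shock genes had 1 fall of 24, with 18 negative and a median of -0.19, and Fos was at 3188, 1969.9, 2956 and 2662 CPM. In thinned cells 5 of the 24 fell, against 776 of all 9622 genes, with a median of -0.45. With other types' markers left out 3 fell, against 441 of all 9760 genes, with a median of -0.47. In conventional dendritic cells Nr4a3, Nr4a1 and Crem fell too, with log2 folds of -3.67, -1.88 and -3.79. The immediate early and heat shock list had a median of -1.03 there, against 0.11 for all genes.

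Some survival and receptor genes fell too. Bcl2l11, the pro-apoptotic protein Bim (chr2:128126038-128162547, plus strand), was at 518, 105, 46.8 and 257 CPM, with a log2 fold of -2.89 (SE 0.44, edgeR adjusted p = 0.00465). Cdkn1a, the cell cycle inhibitor p21, was at 96.5, 22.8, 8.91 and 26.8 CPM, with 65.7% of its NCD UMIs in 3 cells. These were the 2 of 14 survival and death genes that passed, and the list's median was 0.64. Of 19 interferon and cytokine receptor genes 2 fell and 0 rose, with a median of -0.77. In thinned cells 8 fell, against 776 of all 9622 genes. With other types' markers left out 5 fell, against 441 of all 9760 genes, and with DESeq2 or Siglech at least 2 UMIs 0. Il6st, the shared signal chain of the interleukin-6 family, was at 163, 36.3, 43.1 and 48.0 CPM, and Tgfbr2 at 485, 146, 181 and 218 CPM. Ifnar1, which receives type I interferon, was at 471, 126, 231 and 166 CPM and did not pass (log2 fold -1.42, SE 0.41, edgeR adjusted p = 0.0886). In conventional dendritic cells the receptor list had a median of -0.16.

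Clock genes lay lower in HFD. Of 10 tested, 2 fell, 0 rose and 10 were negative, with a median of -0.96 against 0.14 for all genes. Bhlhe40, a repressor of clock and cytokine genes (chr6:108660629-108666925, plus strand), was at 411, 114, 66.8 and 205 CPM, with a log2 fold of -2.27 (SE 0.39, edgeR adjusted p = 0.00805). Cry1, a core repressor of the clock (chr10:85131700-85185064, minus strand), was at 82.7, 24.2, 24.9 and 57.3 CPM. The time of day at which livers were taken is not given in the sources used here, and its part in this was not tested. With predicted doublets left out 0 of the 10 passed, and the median was -1.22. In conventional dendritic cells the clock list had a median of -0.62, against 0.11 for all genes.

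The rest of the named falls had a range of roles. Pvr, the poliovirus receptor, was at 165, 12.1, 17.4 and 49.4 CPM, and Vps37b, of the membrane sorting complex ESCRT-I, at 539, 75.2, 62.0 and 144 CPM. Cmklr1, the chemerin receptor used by pDCs to enter tissue, was at 103, 16.1, 8.54 and 22.9 CPM and was 1 of the 2 homing genes of 19 that passed. Pstpip2, a membrane-bending adaptor, was at 52.4, 5.37, 1.86 and 21.1 CPM, but 76.3% of its NCD UMIs lay in 1 cell. Slc15a2, Cables1, Cystm1 and Prr5l lay between 81.3 and 159 CPM in NCD and between 6.72 and 24.1 CPM in HFD. The 3 leading NCD cells of each gene held 55.6%, 53.9%, 42.4% and 67.2% of its NCD UMIs, in the same order. Irak2, a kinase of Toll-like receptor signalling, was at 303, 116, 109.9 and 84.8 CPM and was the single member of 22 sensing genes to pass. Tnfsf9, 1 of 10 costimulation genes, fell on 10 NCD cells, 1 of which held 66.2% of its UMIs. Its call was lost in 8 of 13 alternatives, with adjusted p up to 0.598, and those with 1 HFD library left out had no test. Il1b fell by 2.85 on the log2 scale, but 93.4% of its NCD UMIs came from 1 cell, and the sign turned with Siglech at least 5 (1.02) and in thinned cells (0.81).

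Markers of liver parenchyma moved in the same direction. Alb, albumin, was at 135 CPM in NCD and 9.41 and 34.5 CPM in HFD, and Ttr, transthyretin, at 28.9, 4.03 and 4.83 CPM, and both passed. The endothelial genes Stab2 and Dnase1l3 passed too, with 95.5% of the NCD Stab2 UMIs in 1 cell and the sign of Stab2 turned in thinned cells (2.77). All 9 hepatocyte markers and 8 of 9 endothelial markers were negative. The calls of Alb, Ttr and Dnase1l3 were lost in 5, 6 and 5 alternatives, and over 50% of the NCD UMIs of each lay in 3 cells. In barcodes of at most 100 UMIs, Alb stood at 3439.5 CPM in NCD and 1664 and 1711 CPM in HFD. Ttr stood at 599, 541 and 661 CPM there, and Dnase1l3 at 885, 46.6 and 117 CPM. The part of such loose RNA was not tested. Of the genes called in HFD vs NCD, 67 of 284 had over 50% of the UMIs of the higher group in 3 cells. Their part in the calls above was not tested. Leaving out cells with markers of other types raised the calls to 627 and kept 260 of the 284.

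The remaining lists were as follows. Cytokines and chemokines had 3 rises (Tnf, Ccl5 and Cxcl2) and 1 fall (Il1b) among 14, Ccl4 being the most abundant at 3465, 2116, 2495 and 3381 CPM. Conventional and transitional dendritic cell features had 1 rise (Lyz2) of 16. Surface signalling genes had 0 of 20, with a median of 0.11, and genes of the secretory apparatus 0 of 27, with a median of 0.22. Markers of B cells (5 tested), plasma cells (3), T cells (1), macrophages (6), neutrophils (3) and conventional dendritic cells (8) held 0 calls, while the 3 tested natural killer cell markers and the 7 tested monocyte markers held 1 rise each, Ccl5 and Lyz2. Of the stellate cell, erythroid and mast cell markers, 0 were tested.

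**Figure D5:**
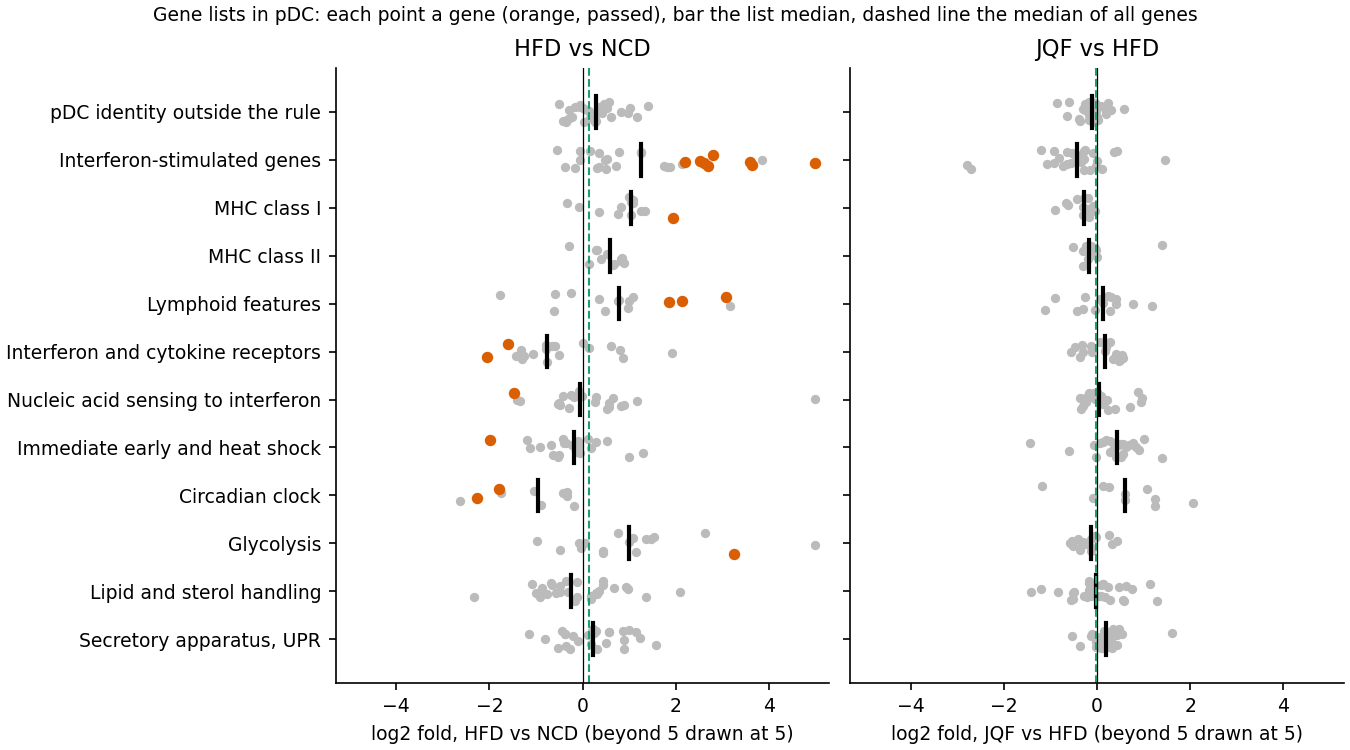
Log2 folds of the genes of 12 lists in pDCs, HFD vs NCD (left) and JQF vs HFD (right), 1 point per gene, orange where the gene passed, with a black bar at the list median, a dashed line at the median of all genes and values beyond 5 drawn at 5. Interferon-stimulated genes have a median of 1.25 on the left and -0.42 on the right, and clock genes -0.96 and 0.60. Both panels use the same HFD libraries.

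The last comparison asked how JQF differed from HFD within pDCs. Irs2 rose, and few other genes passed. Of 10317 genes 4 passed with edgeR (0.0388%), 3 higher in JQF (0.0291%; Ccl5, Irs2 and Gm13184) and 1 lower (0.00969%; Stab2), and 414 had an unadjusted p under 0.05. This comparison uses the same HFD libraries as HFD vs NCD, so that an HFD value that is off by chance moves both in opposite directions, and the values are set side by side without a test of their likeness.

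Irs2 stood at 20.2 and 17.1 CPM in the HFD libraries and 111 CPM in JQF, with a log2 fold of 2.64 (SE 0.34, edgeR adjusted p = 0.0107). It was seen in 9 of 47 and 33 of 225 HFD cells and in 94 of 175 JQF cells, and the leading JQF cell held 5.47% of its UMIs. The rise was spread over many cells. The NCD level, 175 CPM, lay above that of JQF. The call was lost with predicted doublets left out (adjusted p = 0.113), with Siglech at least 2, with library totals only and with DESeq2, while the log2 fold stayed between 2.51 and 3.18 over all alternatives. Gm13184, below the level set for naming and given after its values were seen, was at 44.1, 1.34, 1.48 and 31.1 CPM. In conventional dendritic cells Irs2 was at 16.6 and 21.3 CPM in the HFD libraries and 53.9 CPM in JQF. Its log2 fold there was 1.58 and did not pass.

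The other calls rested on few cells. Ccl5 had 15 and 62 UMIs in the HFD libraries and 628 in JQF (log2 fold 3.37, SE 0.33), but 94.4% of the JQF UMIs came from 1 cell, and the sign turned when Siglech of at least 5 UMIs was asked for (log2 fold -0.48). Stab2 had 62 UMIs in HFD and 2 in JQF, a ratio of 25.2 (6.68 to 213), and 75.8% of the HFD UMIs lay in 3 cells. Dhx40, an RNA helicase-like gene, missed the threshold in the main setting, at 1726, 387, 486 and 2159.7 CPM, with a log2 fold of 2.33 (SE 0.37, edgeR adjusted p = 0.0553). It passed in 7 of 13 alternatives, and its adjusted p ran from 2.40e-18 to 1.000 over those with a test. The alternatives with 1 HFD library left out had no test. It had passed as lower in HFD than in NCD (log2 fold -2.03). Bcl2l11 (log2 fold 1.86), Cxcl2 (1.77) and Dusp16, a MAP kinase phosphatase (1.67), did not pass, though Bcl2l11 and Dusp16 passed in 3 alternatives each and Cxcl2 in 1. The test of the difference between pDCs and conventional dendritic cells in JQF vs HFD called 3 of 12246 genes (0.0245%), Ccl5 with the higher fold in pDCs (0.00817%) and Ly6d and Atp1b1 with the lower (0.0163%).

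On the lower side, genes named for size did not pass either. Clec2d, a ligand of natural killer receptors, was at 231 and 353 CPM in HFD and 101 CPM in JQF (log2 fold -1.52, SE 0.42). AY036118 was at 759, 367 and 198 CPM, and the chaperone Hspa1b at 793, 239 and 181 CPM, in HFD replicates 1 and 2 and JQF, each lowest in JQF. Hspa1b may share reads with its near-identical copy Hspa1a. Ifi27l2a (log2 fold -0.92), H2-Q7 (-0.90) and Ly6a (-0.89) had risen in HFD vs NCD and lay below both HFD libraries in JQF without passing.

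By lists, 0 of 29 interferon-stimulated genes passed in JQF vs HFD, and 24 were negative, with a median of -0.42 against -0.03 for all genes. Of 13 MHC class I genes 0 passed and 13 were negative, with a median of -0.28. Clock genes had 0 of 10 and a median of 0.60, with Bhlhe40 at 1.25 (SE 0.39) and Cry1 at 1.24 (SE 0.34). Immediate early and heat shock genes had 0 of 24, 20 positive and a median of 0.44. In thinned cells 7 of these 24 rose and 1 fell, and 3 of the 10 clock genes rose. Of all 9622 genes, 149 rose and 59 fell in thinned cells. Identity genes had 0 of 30 and a median of -0.10, and lymphoid genes 0 of 15 and a median of 0.14. These signs hung on 1 HFD library: identity genes had -0.32 without HFD replicate 1 and 0.17 without HFD replicate 2, and lymphoid genes -0.20 and 0.39. MHC class II genes, at a median of -0.18 with both HFD libraries, had 0.13 and -0.34. The median of interferon-stimulated genes was -0.22 without HFD replicate 1 and -0.46 without HFD replicate 2, and that of cell cycle genes 1.06 and -0.37 against 0.05 with both. The other gene lists, markers of other cells aside, had medians between -0.24 and 0.47 where at least 3 genes were tested, with Ccl5 as the single call. Of the marker lists, endothelial cells had a median of -1.15 with Stab2 called, macrophages -1.11 and hepatocytes 0.86, with 0 calls in the latter pair. In simulated data of this comparison (9885 genes) the genes changed were drawn from those with more UMIs. Of these, 49% of genes changed 4-fold and 7% of genes changed 2-fold were called. Most single changes of the size of these medians were thus not detectable.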

How the data were processed

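UMI counts per gene and barcode were deposited by the authors as filtered and unfiltered 10x 3′ matrices, aligned to mm10. Cell Ranger 6.0.1 and Seurat 4.0.3 are named in the submitters' notes, whereas the headers give 7.0.0 (filtered) and 4 (unfiltered). Whether intronic reads were counted is not given in the sources used here. From the filtered matrices, barcodes entered with 500 or more genes and mitochondrial UMIs up to 20%, and pDCs were chosen by the limits stated in the report. Doublets were scored with scrublet in scanpy 1.11.5 and kept in the main results.

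UMIs were summed per library over pDCs and tested with edgeR 4.0.16 (R 4.3.3): TMM scaling, filterByExpr, quasi-likelihood F-test, group as the only term, 4 libraries, Benjamini-Hochberg adjustment at 0.05. The HFD pair gave 1 residual degree of freedom. The difference from conventional dendritic cells was an interaction term. Genes were named if they passed, reached 50 CPM and 5 cells in the higher group and had both HFD libraries on one side, up to 12 per direction. Directions with under 6 were filled from genes of at least 200 CPM, and list members that passed or were most abundant were added. The 11 genes of the selection rule were not tested as findings.

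The cells, the 33 gene lists and the rules were chosen with earlier results of these data known. The test was tried on simulated counts, where 41% of genes changed 4-fold and 4% of genes changed 2-fold were called in HFD vs NCD (9869 genes). The changed genes were drawn from those with more UMIs, and the simulated spread was the same for all genes. Alternatives were Siglech of at least 5 or 2 UMIs, cells chosen after thinning to 3000 UMIs, and other cell filters, denominators and scalings. No gene filter, DESeq2 1.42.0 and each HFD library left out were tried too. Thinning served only to choose cells, and their full UMIs were tested. Gene positions are from GENCODE M21.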

Additional observations from a re-analysis of the deposited data

Results flagged for a closer look

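In JQF vs HFD, 3 of 12246 genes (0.0245%) differed in log2 fold between pDCs and conventional dendritic cells by the edgeR interaction test, with 338 at an unadjusted p under 0.05. Ly6d had a difference, pDCs minus conventional dendritic cells, of -5.77 (SE 0.51, edgeR adjusted p = 0.0249). Its log2 fold was 0.30 in pDCs and 6.08 in conventional dendritic cells, where it stood at 0, 0.103, 1.02 and 37.2 CPM in NCD, HFD replicates 1 and 2 and JQF. Ly6d in barcodes of at most 100 UMIs moved the same way, at 40.4, 73.2, 88.7 and 419 CPM. So did Ly6d in all cells kept other than pDCs, at 22.6, 53.6, 56.1 and 404 CPM. The part of loose RNA or of other cells in the difference was not tested.

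Atp1b1, a sodium pump subunit, had a difference of -4.38 (SE 0.44, edgeR adjusted p = 0.0359). It stood at 310.1, 364, 483 and 276 CPM in pDCs and at 0.373, 0.928, 0.715 and 11.6 CPM in conventional dendritic cells. Ccl5 had a difference of 3.33 (SE 0.37, edgeR adjusted p = 0.0462), with 94.4% of its JQF UMIs in 1 pDC.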

How the results depend on the processing

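No paired analysis was possible because the groups compared share fewer than 2 replicate numbers. Leaving out 1 HFD library moved the log2 ratio of pDC shares between 0.22 and 1.82 in HFD vs NCD and between -0.10 and 1.51 in JQF vs HFD. With 1 HFD library left, no residual degrees of freedom remained, so gene tests gave values only.

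Against 284 and 4 genes called in HFD vs NCD and JQF vs HFD, calls numbered 438 and 5 with Siglech at least 5. Calls were 10 and 0 with Siglech at least 2, 1141 and 208 with cells chosen after thinning to 3000 UMIs, and 112 and 1 with predicted doublets left out. They numbered 450 and 5 with no C1q limit, 242 and 3 with DESeq2 size factors in edgeR, 86 and 1 with library totals, 666 and 66 with every gene, 64 and 4 with only the groups compared, and 99 and 2 with DESeq2. Leaving out cells with markers of other types, added after seeing the data, gave 627 and 48. Of the 284, 277 were shared with Siglech at least 5, 107 with doublets left out, 96 with DESeq2 and 10 with Siglech at least 2. The difference between cell types called 0, 224, 13 and 78 genes in HFD vs NCD and 2, 51, 0 and 18 in JQF vs HFD with library totals, every gene, type 1 cells only and type 2 cells only.

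The sign turned for Il1b in HFD vs NCD (1.02 with Siglech at least 5, 0.81 thinned), Stab2 (2.77 thinned), Ccl5 in JQF vs HFD (-0.48, -0.75 thinned, -0.56 with other types' markers left out) and Cxcl2 in JQF vs HFD (-0.39 with doublets left out, -0.87 with other types' markers left out). The cause was not tested. Over the 50 named genes that passed in HFD vs NCD, there were 649 alternative values. Of these, 451 kept their direction and, where there was a test, their call, and 171 lost the call. Values with 1 HFD library left out had no test and counted as kept if the log2 fold moved by less than its SE. By that limit 24 values moved, and 3 values turned in sign. With 37 and 47 cells in NCD and HFD replicate 1, low genes rested on few UMIs.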
